A study of Mus musculus with 8 samples.

Results

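Neurexins, neuroligins and cerebellins are synaptic adhesion proteins and their secreted linkers, and 8 of their genes were followed here: the neurexins Nrxn2 and Nrxn3, the neuroligins Nlgn1, Nlgn2 and Nlgn3, and the cerebellins Cbln1, Cbln2 and Cbln4. They were picked out of the table by gene name, all 8 were listed among the 14353 genes with a value, and all 8 passed the filter that left 14249 genes for testing (above 1 CPM, the count of a gene scaled by library size, in at least 3 libraries). The study used translating ribosome affinity purification (TRAP) to separate messages bound to tagged ribosomes of glutamatergic neurons in the ventral pallidum, a basal forebrain region, from the RNA of the whole dissected tissue (INPUT). Tissue of 38 mice (15 males and 23 females) was combined into 4 pools. These were VP1.6 with 7 mice, VP2.2 with 10, VP2.6 with 11 and VP2.11 with 10. From every pool came 1 TRAP and 1 INPUT library (n = 4 per fraction). These numbers and the ages below follow the sample labels. The paper gives other numbers of samples and mice and another age range.

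All mice, in both fractions, came from a VGluT2-Cre x Rpl22 cross, were homozygous for VGluT2-Cre and heterozygous for Rpl22, and had no treatment. Pool VP1.6 was taken at 9 to 12 weeks of age and the other pools at 10 to 16 weeks. In this cross Cre, made from the gene for the vesicular glutamate transporter VGluT2, switches on an epitope-tagged copy of the ribosomal protein RPL22, so the tag marks cells with a history of Cre activity. Each pool mixed males and females, so neither a single animal nor a sex could be examined. The dissection could include neighbouring striatum, and in bulk RNA fewer cells of a type and less RNA per cell cannot be told apart.

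Neurexins sit in the presynaptic membrane, where they bind a range of partners across the cleft and help to organize release sites. Neuroligins are postsynaptic neurexin receptors. NLGN1 is best known from excitatory synapses, NLGN2 from inhibitory synapses, and NLGN3 is found at both. Cerebellins are secreted proteins of the C1q family that bridge presynaptic neurexins to postsynaptic receptors, the delta glutamate receptors being the best known of these.

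The fractions carried the markers of their labels. Slc17a6, which encodes VGluT2, stood at 143 ± 13.6 CPM in TRAP and 25.9 ± 10.3 CPM in INPUT (mean ± SD, n = 4; log2 difference 2.55, SE 0.25, adjusted p = 8.83e-05). Slc32a1, the vesicular GABA transporter, fell from 25.5 ± 6.22 CPM in INPUT to 10.9 ± 3.71 CPM in TRAP (adjusted p = 0.00267). The GABA-synthesis genes Gad1 and Gad2 remained abundant in TRAP, at 613 ± 145 and 528 ± 142 CPM, against 516 ± 170 and 560 ± 184 CPM in INPUT, and neither passed the test (adjusted p = 0.387 and 0.899).

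Every value below is on the scale of the authors' log2 CPM, or CPM taken back from it, and differences are TRAP minus INPUT. Adjusted p-values come from limma over all 14249 genes with Benjamini-Hochberg adjustment, and a gene was called at an adjusted p under 0.05. Both libraries of a pool came from the same mice, so each gene was also fitted with the pool as a block, and where that moved the call of a named gene both p-values are given. The libraries of a pool were tied to each other: in 14351 of 14353 genes a single value lay between the TRAP and INPUT values of all 4 pools at once, against 6860, 8000 and 6862 genes when INPUT pools were matched to the wrong TRAP pools. A gene that moved the same way in all 4 pools was thus also a gene whose fractions did not overlap, and SDs over libraries may be too small. Values take this form when a term for the pool has been subtracted from them. Whether that was done is not stated in the sources used here and was not tested. If it was, the CPM of single libraries are adjusted values and p-values without the block, the only ones printed for most genes outside the 8, are too small.

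Of the 8 genes, 3 were called in both fits: Nrxn3 and Cbln2 rose in TRAP and Cbln4 fell. Among all genes tested, 32.1% were called in both fits, 15.4% higher and 16.7% lower. With the block these same 3 were called, where 32.2% of all genes were, and without it 4 of the 8, Cbln1 being the other, where 47.9% of all genes were. The fractions did not overlap, and all 4 pools moved the same way, for 4 of the 8 (Nrxn3, Nlgn2, Cbln2 and Cbln4) and for 47.7% of all genes. The share of called members was thus near the background. The median log2 difference was 0.43 over the 8 genes and -0.05 over all genes tested, and 7 of the 8 had a higher mean in TRAP, as had 47.6% of all genes. These counts moved when the trend of the differences with exon length was taken out: 4 of the 8 then had a higher mean in TRAP, and 3 were called higher and 3 lower without the block, and 2 and 2 with it. Of the 14249 genes, 2463 were then called higher and 4243 lower without the block, and 1678 and 2995 with it.

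**Figure D1:**
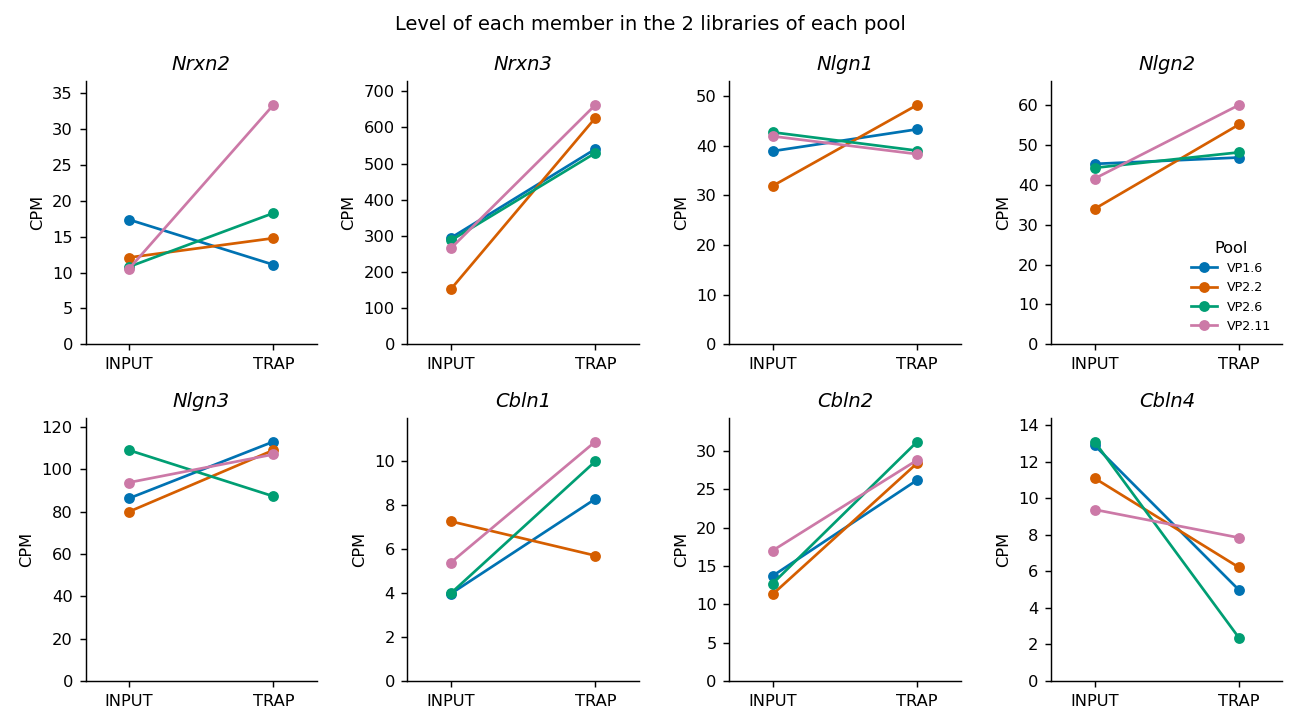
CPM (linear axis from 0) of each of the 8 genes in the INPUT and TRAP library of each pool, with a line joining the libraries of a pool. Nrxn3 and Cbln2 rise and Cbln4 falls in all 4 pools, while the lines of Nrxn2, Nlgn1, Nlgn3 and Cbln1 run in both directions.

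Nrxn3 was the most abundant of the 8 in both fractions. The gene (ENSMUSG00000066392) spans chr12:88722876-90334935 on the plus strand of GRCm38. It can be read from several start sites, and neurexin genes are known for long alpha forms and shorter beta forms that begin inside the gene. The RefSeq windows used here hold 3 starts for Nrxn3, the first and last of them 1018 kb apart. The 300 bases around those 2 are shown because the CPM of the gene adds up reads of transcripts from all its starts. Capitals mark CG dinucleotides, and both are read on the plus strand of GRCm38.p6.
Nrxn3 first start, chr12:88794254-88794553: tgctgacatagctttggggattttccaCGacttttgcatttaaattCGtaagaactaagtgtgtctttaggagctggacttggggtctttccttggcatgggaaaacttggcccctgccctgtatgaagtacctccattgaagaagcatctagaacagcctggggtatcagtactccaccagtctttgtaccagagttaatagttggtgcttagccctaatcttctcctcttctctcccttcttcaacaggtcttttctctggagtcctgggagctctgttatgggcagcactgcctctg
Nrxn3 last start, chr12:89812233-89812532: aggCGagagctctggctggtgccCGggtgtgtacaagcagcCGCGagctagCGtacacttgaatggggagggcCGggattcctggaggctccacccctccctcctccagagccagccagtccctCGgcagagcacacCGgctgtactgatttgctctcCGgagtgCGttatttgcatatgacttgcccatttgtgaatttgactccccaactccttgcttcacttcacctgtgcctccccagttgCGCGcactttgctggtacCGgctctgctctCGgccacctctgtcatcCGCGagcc

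The first window holds 2 CG dinucleotides and the last 16, where the median of all 32851 windows in the table is 7. Values per start were not analysed here, so the differences that follow belong to the gene as a whole.

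In TRAP, Nrxn3 stood at 540 CPM in VP1.6, 626 in VP2.2, 529 in VP2.6 and 662 in VP2.11, and lists of values below keep this order of pools. The INPUT libraries held 294, 152, 287 and 265 CPM. Every TRAP library was above every INPUT library, and the lowest INPUT value came from VP2.2. The mean log2 difference was 1.28 (SE 0.21, n = 4 per fraction, 2.43-fold, adjusted p = 0.000853, and 0.00147 with the pool block), and the pools ranged from 0.88 to 2.05. With the exon length trend taken out it was 0.66 and still called (adjusted p = 0.00645, and 0.0151 with the block).

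Nrxn2 (ENSMUSG00000033768, chr19:6418731-6544169, plus strand) was far less abundant. It stood at 11.1, 14.8, 18.3 and 33.4 CPM in TRAP, and in INPUT at 17.4, 12.1, 10.8 and 10.5 CPM. The fractions overlapped: VP1.6 had the lowest TRAP value and the highest INPUT value, and the other 3 pools were higher in TRAP. The mean log2 difference of 0.52 (SE 0.31) did not pass the test (adjusted p = 0.192, and 0.254 with the block), and its 95% interval with the block ran from -0.20 to 1.23. Taking out the trend of the differences with exon length turned its sign, to -0.13, and single pools moved it, to 0.91 without VP1.6 (adjusted p = 0.0512) and to 0.13 without VP2.11 (adjusted p = 0.683). Of its exon bases 4.94% overlap Slc22a12 and 1.5% Gm14964, both on the opposite strand. Per kb of exon, Nrxn3 exceeded Nrxn2 by 5.18 ± 0.58 on the log2 scale in TRAP and by 4.41 ± 0.52 in INPUT (mean ± SD over 4 libraries), and the ratio was higher in TRAP in 3 of 4 pools.

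None of the 3 neuroligins was called in either fit, and their levels in TRAP and INPUT differed by at most 1.28-fold on average. Nlgn3 (ENSMUSG00000031302, chrX:101299168-101325963, plus strand) was the most abundant of them. It stood at 113, 109, 87.2 and 107 CPM in TRAP and at 86.2, 79.9, 109 and 93.7 CPM in INPUT. VP2.6 ran against the other pools, and the fractions overlapped. The log2 difference was 0.18 (SE 0.14, adjusted p = 0.326, 95% interval with the block -0.29 to 0.64). It was 0.34 without VP2.6, 0.10 without VP1.6, 0.09 without VP2.2 and 0.00 with array weights, and was called in none of these. Of its exon bases 41.2% are shared with Gm21986 on the same strand, and the study counted only unambiguous reads, so its level is uncertain.

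Nlgn2 (ENSMUSG00000051790, chr11:69823122-69837784, minus strand), the neuroligin of inhibitory synapses, stood at 46.9, 55.2, 48.2 and 60.1 CPM in TRAP, against INPUT values of 45.3, 34, 44.3 and 41.6 CPM. Each TRAP library was above each INPUT library, by little in VP1.6 and VP2.6 and by more in VP2.2 and VP2.11. The log2 difference of 0.35 (SE 0.14) missed the threshold (adjusted p = 0.0663, and 0.249 with the block). It was called only under median centring of the libraries (0.38, adjusted p = 0.0305), and was 0.23 without VP2.2 (adjusted p = 0.176), 0.17 with array weights (adjusted p = 0.157) and 0.05 with the exon length trend taken out (adjusted p = 0.786).

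Nlgn1 (ENSMUSG00000063887, chr3:25426215-26332460, minus strand), the neuroligin of excitatory synapses, stood at 43.3, 48.2, 39 and 38.3 CPM in TRAP. In INPUT it stood at 38.9, 31.9, 42.7 and 41.9 CPM. The pools split evenly, VP1.6 and VP2.2 being higher in TRAP and the others lower. The log2 difference was 0.12 (SE 0.14, adjusted p = 0.501, 95% interval with the block -0.37 to 0.61). Its sign turned to -0.03 without VP2.2, and to -0.52 with the exon length trend taken out, where it was called lower (adjusted p = 0.00276, and 0.0472 with the block). Under the same setting Nlgn3 also turned, to -0.33 (adjusted p = 0.0421, and 0.179 with the block), and the median of all genes moved from -0.05 to -0.178. Of the exon bases of Nlgn1, 9.16% overlap the antisense gene A830092H15Rik.

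The makeup of the neuroligin message overlapped between fractions for all 3 genes. Per kb of exon, Nlgn3 made up 47.8% ± 2.8 of the 3 neuroligins in TRAP and 49.8% ± 2.46 in INPUT. Nlgn2 made up 38.8% ± 3.25 and 35.7% ± 2.29, and Nlgn1 13.4% ± 1.31 and 14.5% ± 0.575 (SD, n = 4). The log2 ratio of Nlgn1 to Nlgn2 was -1.53 ± 0.24 in TRAP and -1.30 ± 0.10 in INPUT, and it was lower in TRAP in 3 of 4 pools.

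**Figure D2:**
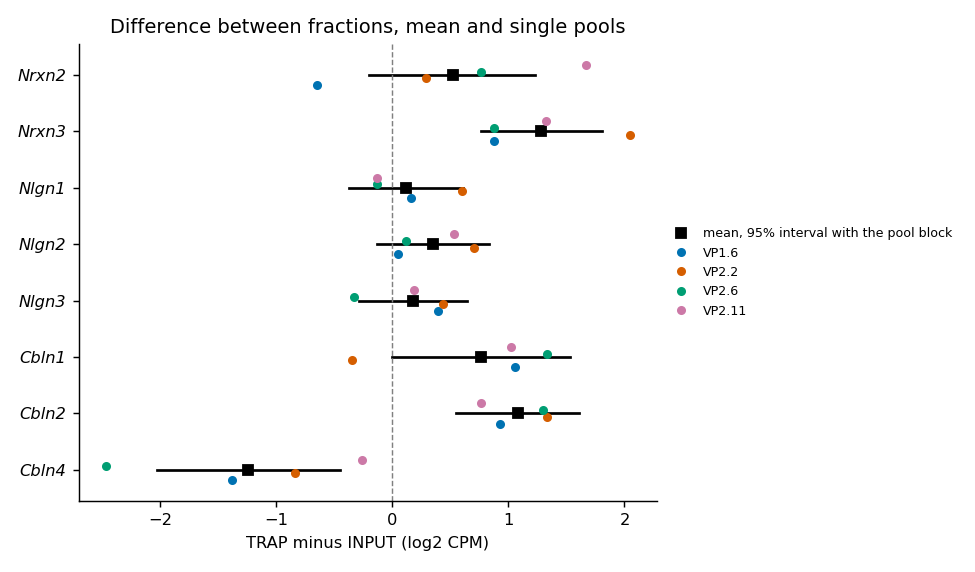
TRAP minus INPUT difference of each gene in log2 CPM, with the mean of the 4 pools as a square, its 95% interval from the fit with the pool block as a bar, and each pool as a coloured point. The intervals of Nrxn3, Cbln2 and Cbln4 lie clear of 0, and those of the 3 neuroligins span it.

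The cerebellins moved in opposite directions. Cbln2 (ENSMUSG00000024647) stood at 26.2, 28.4, 31.2 and 28.8 CPM in TRAP. Its INPUT values were 13.7, 11.3, 12.7 and 17 CPM. The fractions were far apart in each pool, and the TRAP libraries were close to one another. The log2 difference was 1.08 (SE 0.16, adjusted p = 0.000515, and 0.00448 with the block), with the pools between 0.76 and 1.33.

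Cbln4 (ENSMUSG00000067578, chr2:172036233-172043466, minus strand) was the only one of the 8 genes with a lower mean in TRAP. The RefSeq windows used here hold 1 start for Cbln4. The 300 bases around it, read on the minus strand of GRCm38.p6, are shown because this was the gene of the set that fell. Capitals mark its 15 CG dinucleotides, and 67% of all windows hold as many or fewer.
Cbln4 start, chr2:172043417-172043716: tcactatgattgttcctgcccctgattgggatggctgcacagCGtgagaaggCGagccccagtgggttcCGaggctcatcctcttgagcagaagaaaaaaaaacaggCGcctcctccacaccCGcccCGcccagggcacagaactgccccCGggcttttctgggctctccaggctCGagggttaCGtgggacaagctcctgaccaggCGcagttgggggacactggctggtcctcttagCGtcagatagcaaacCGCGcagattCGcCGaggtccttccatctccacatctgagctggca

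Cbln4 stood at 4.97, 6.21, 2.35 and 7.84 CPM in TRAP. In INPUT it stood at 12.9, 11.1, 13.1 and 9.38 CPM. No TRAP library reached the lowest INPUT library, but the gap was wide in VP2.6 and narrow in VP2.11. The log2 difference was -1.24 (SE 0.33, adjusted p = 0.0117, and 0.0196 with the block), and the pools ran from -2.47 to -0.26. Leaving out VP1.6 ended the call, at a difference of -1.19 (adjusted p = 0.0673, and 0.0659 with the block). Leaving out VP2.6 moved the difference to -0.82, called without the block (adjusted p = 0.0411) and not with it (adjusted p = 0.159). Without VP2.2 or VP2.11 Cbln4 was called in both fits. With array weights the difference was -1.63 (adjusted p = 0.000346), and -1.64 when they were added to the block (adjusted p = 0.00056).

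Cbln1 (ENSMUSG00000031654, chr8:87468405-87472609, minus strand) stood at 8.29, 5.71, 10 and 10.9 CPM in TRAP. In INPUT it stood at 3.97, 7.27, 3.99 and 5.39 CPM. In 3 pools it was higher in TRAP and in VP2.2 it was lower, so the fractions overlapped. The log2 difference of 0.76 (SE 0.27) was called without the block (adjusted p = 0.0405) and not with it (adjusted p = 0.116). With array weights added to the block it was 1.03 and called (adjusted p = 0.0108). Without VP2.2 it was 1.14 and called with the block (adjusted p = 0.0314), and without any of the other 3 pools it was called in neither fit (0.67, 0.58 and 0.68 without VP1.6, VP2.6 and VP2.11).

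Within the cerebellins the balance between Cbln2 and Cbln4 differed between the fractions in every pool. Per kb of exon, Cbln2 exceeded Cbln4 in TRAP by between 1.88 (VP2.11) and 3.73 (VP2.6) on the log2 scale. In INPUT the log2 ratio was 0.09, 0.03, -0.04 and 0.86. In words, Cbln2 dominated in each TRAP library, while in INPUT both were near the same level except in VP2.11. The change in the ratio was 2.32 ± 1.13 (SD, n = 4 pools), and with pools as pairs an exact test by flipping signs cannot give a two-sided p below 0.125.

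Expressed as shares of the 3 cerebellins, Cbln2 made up 67.9% ± 4.98 in TRAP and 45.2% ± 6.51 in INPUT. Cbln4 made up 12.6% ± 5.01 in TRAP and 38.5% ± 6.45 in INPUT. Cbln1 made up 19.5% ± 4.05 and 16.3% ± 5.19, and its share was lower in TRAP in VP2.2 alone.

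**Figure D3:**
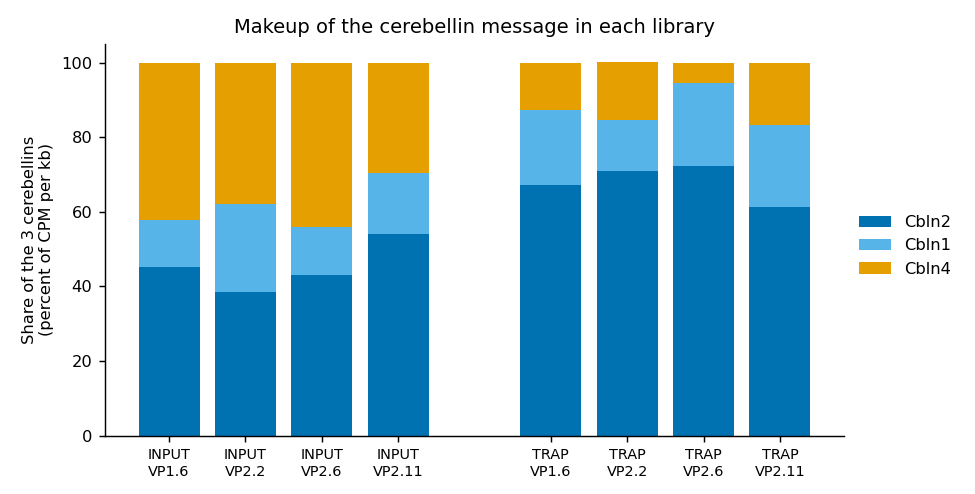
Share of Cbln2, Cbln1 and Cbln4 (percent of their summed CPM per kb of exon, 1 bar per library) in the 4 INPUT and 4 TRAP libraries. The Cbln4 share lies between 29.7% and 44.1% in INPUT and between 5.44% and 16.6% in TRAP.

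Levels of the 8 genes were compared with each other per kb of exon. In TRAP the order was Nrxn3 (46.8 ± 5.14 CPM per kb), Nlgn3 (11.2 ± 1.24), Cbln2 (9.9 ± 0.709), Nlgn2 (9.09 ± 1.08), Nlgn1 (3.14 ± 0.338), Cbln1 (2.88 ± 0.755), Cbln4 (1.84 ± 0.797) and Nrxn2 (1.4 ± 0.707). Clear steps stood between Nrxn3 and Nlgn3 and between Nlgn2 and Nlgn1, which held in all 4 libraries. Per kb of coding length the second of these steps was small (Nlgn2 21 and Nlgn1 16.7 CPM per kb). The other neighbours in the order by exon length changed places in at least 1 library. On the coding scale, Cbln2 (42.6 CPM per kb) ranked just above Nlgn3 (41) in TRAP, and in INPUT both Cbln2 (20.4) and Cbln4 (19.5) ranked above Nlgn2 (16.5).

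In INPUT the order was Nrxn3 (19.8 ± 5.27 CPM per kb), Nlgn3 (9.95 ± 1.36), Nlgn2 (7.14 ± 0.885), Cbln2 (4.73 ± 0.846), Cbln4 (4 ± 0.598), Nlgn1 (2.89 ± 0.367), Cbln1 (1.7 ± 0.513) and Nrxn2 (0.919 ± 0.232). Here Cbln4 stood above Nlgn1 in all 4 libraries, whereas in TRAP it ranked below both Nlgn1 and Cbln1. The 2 neurexins made up 55.8% ± 1.47 of the summed CPM per kb of the 8 genes in TRAP and 39.9% ± 5.29 in INPUT. The neuroligins made up 27.2% ± 1.54 and 39.3% ± 2.53, and the cerebellins 17% ± 1.41 and 20.8% ± 3.22.

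**Figure D4:**
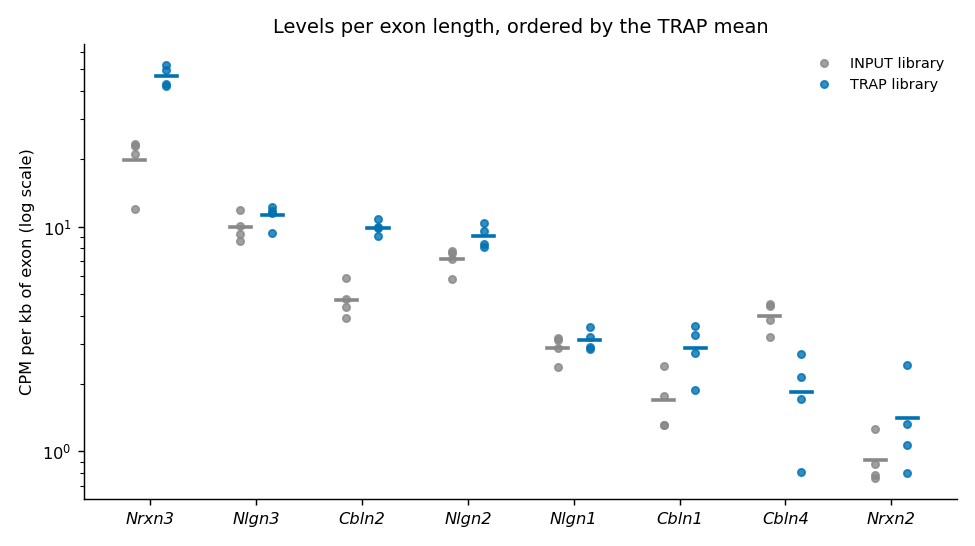
CPM per kb of exon (log axis) of the 8 genes, ordered by their TRAP mean, with 1 point per library and a bar at the mean of the 4 libraries of a fraction. Nrxn3 lies highest in both fractions, and Cbln4 is the gene whose INPUT points lie above its TRAP points.

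The proteins that work with these genes were counted from a list of 77 partner genes, of which 71 were tested. Without the block 35 were higher and 6 lower in TRAP, and with the block 24 and 5, where the shares of all genes were 23.2% higher and 24.8% lower in the first fit, and 15.4% and 16.8% in the second. Their median log2 difference was 0.40. With the exon length trend taken out, 19 were higher and 14 lower, and of all genes 2463 and 4243 in place of 3300 and 3530. Cbln3, C1ql2, C1ql4, Ca10, Ca11 and Ntng2 were not analysed here.

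Among presynaptic genes, all 3 LAR-type receptor phosphatases, which like neurexins organize terminals, rose without the block. Ptprd did so in both fits (1.31, adjusted p = 0.000641), and the block ended the calls of Ptprf (0.58, adjusted p = 0.0134, and 0.0699 with the block) and Ptprs (0.43, adjusted p = 0.0145, and 0.127 with the block). Of 8 intracellular neurexin partners, 2 rose and none fell in either fit: Syt1, the calcium sensor of release (1.06, adjusted p = 0.000307), and the adaptor Apba2 (0.81, adjusted p = 0.00286). Lin7a differed by 0.37 and missed the threshold (adjusted p = 0.0554).

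Khdrbs1, Khdrbs2 and Khdrbs3 encode the SAM68 family of RNA-binding proteins, known as regulators of neurexin splicing. Khdrbs1 rose in both fits (1.23, adjusted p = 0.000118). Khdrbs2 (0.58, adjusted p = 0.03, and 0.0925 with the block) and Khdrbs3 (0.38, adjusted p = 0.0401, and 0.196 with the block) were called only without the block. Splice forms were not analysed here. None of the 4 sheddase genes, which encode proteases that release neurexin and neuroligin ectodomains, was called in either fit. The log2 differences were 0.38 for Psen2 and 0.14 for Adam17 (adjusted p = 0.263 and 0.687).

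On the postsynaptic side, 8 of 16 neurexin or cerebellin partners rose and 1 fell without the block, and 6 and 0 with it. The 3 calsyntenins led: Clstn2 rose by 1.97 (SE 0.21, adjusted p = 0.00012), Clstn1 by 1.53 (SE 0.14, adjusted p = 7.09e-05) and Clstn3 by 1.26 (SE 0.17, adjusted p = 0.000315).

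Of the 9 neuroligin regulators, Gphn, the scaffold gephyrin of inhibitory synapses, rose by 1.23 (adjusted p = 0.000202), and Dlg4, the scaffold PSD-95 of excitatory synapses, differed by -1.06 (adjusted p = 0.000455). Both calls held with the block. Mdga1, which encodes a protein that blocks neurexin from binding neuroligin, differed by 0.74 and lost its call with the block (adjusted p = 0.0122 and 0.0776).

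Among secreted and membrane-bound neurexin ligands, 4 of 7 rose and 2 fell in both fits. Fam19a1 rose by 1.25 (adjusted p = 0.000978) and the neurexophilin Nxph1 by 0.87 (adjusted p = 0.0013), and Fam19a5 differed by -0.76 (adjusted p = 0.00373). Nxph2 had the largest fall of all partner genes at -2.74 (adjusted p = 0.0234), but at 2.59 ± 0.364 CPM in INPUT and 0.774 ± 0.929 CPM in TRAP, and its pools ran from -4.91 to -0.02. Of the C1q-like organizers, relatives of the cerebellins, C1ql3 rose by 1.36 (adjusted p = 0.000508) and C1ql1 was not called (adjusted p = 0.189).

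Other adhesion systems of the synapse were counted in the same way. Of 7 teneurins and FLRTs, 5 rose without the block and 4 with it, led by Tenm1 (1.70, adjusted p = 0.000649), Tenm2 (1.65, adjusted p = 0.000323) and Tenm4 (1.14, adjusted p = 0.000295). Of 8 partners of LAR-type receptors, 4 rose and 1 fell without the block, and 2 and 1 with it: Slitrk4 rose by 0.94 (adjusted p = 0.00389) and Ntrk3 by 0.86 (adjusted p = 0.00153), and Lrrc4b differed by -1.10 (adjusted p = 0.000478). Ntng1, which encodes netrin-G1, rose by 1.34 (adjusted p = 0.00179), and its ligand gene Lrrc4c differed by -0.70 (adjusted p = 0.00274), while Lrrc4 was not called (adjusted p = 0.311).

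**Figure D5:**
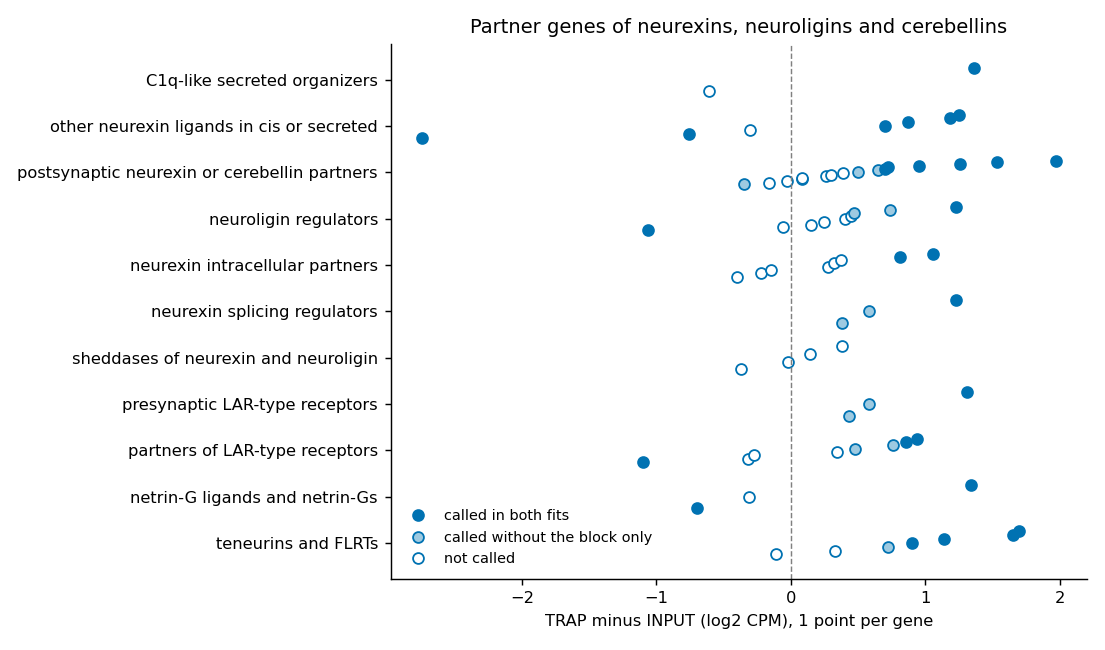
TRAP minus INPUT difference in log2 CPM of tested partner genes in 11 groups, with 1 point per gene. Filled points were called in both fits, pale points without the pool block only, and open points in neither, and most filled points lie to the right of 0, with Clstn2 farthest right at 1.97 and Nxph2 farthest left at -2.74.

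Markers of cell types moved with the fractions, and their part in the results above was not tested. The most abundant marker of a list is the one with the highest CPM over all 8 libraries, not divided by length, and it need not lead in each fraction. Of 6 glutamatergic markers 5 rose in both fits (median log2 difference 2.34), and their summed level was 327, 284, 332 and 394 CPM in TRAP and 67.5, 46.6, 61.9 and 97.5 CPM in INPUT. Of 6 hypothalamic or thalamic markers 4 rose in both fits, with Tcf7l2 the most abundant (332 ± 44.9 CPM in TRAP, 134 ± 18.5 CPM in INPUT). Of 5 striatal markers 4 fell in both fits, with Ppp1r1b the most abundant (114 ± 11.6 CPM in TRAP, 292 ± 69.6 CPM in INPUT). The striatal markers summed to 229, 305, 261 and 280 CPM in TRAP, so they were lower there than in INPUT and not at 0.

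Most glial markers fell and likewise stayed above 0. Of 5 oligodendrocyte markers 4 fell in both fits and Mag differed by 0.61 the other way (adjusted p = 0.0355, and 0.0719 with the block), with Mbp at 335 ± 68.4 CPM in TRAP and 1586 ± 477 CPM in INPUT and Sox10 at 8.5 ± 2.39 and 25.5 ± 7.08 CPM. Of 5 astrocyte markers 4 fell in both fits, among them Gfap (17.5 ± 6.44 CPM in TRAP, 53.5 ± 12.9 CPM in INPUT) and Slc1a3, the most abundant (80.6 ± 22.2 and 174 ± 35.7 CPM). All 5 microglial markers fell without the block and 3 with it, with Cx3cr1 at 6.17 ± 2.29 and 23.5 ± 4.42 CPM and P2ry12, the most abundant, at 6.54 ± 1.15 and 34.9 ± 7.44 CPM.

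The remaining lists were mixed. Of 5 GABAergic markers 3 fell in both fits and none rose. Of 4 cholinergic markers 1 rose and 2 fell without the block, and 0 and 2 with it, and Chat stood at 59.2 ± 12.9 CPM in TRAP and 37 ± 11 CPM in INPUT (adjusted p = 0.0344, and 0.0655 with the block). Of 4 oligodendrocyte precursor markers 1 rose and 2 fell in both fits, and Pdgfra stood at 9.28 ± 5.24 and 10.8 ± 3.96 CPM, with Olig1 the most abundant. Of 3 endothelial markers with a value 1 rose in both fits, Ly6c1 was the most abundant, and Cldn5 was not analysed here. Their sums ran from 6.45 CPM in VP2.2 to 50.3 CPM in VP2.11 in TRAP, and from 3.51 CPM in VP1.6 to 41.7 CPM in VP2.2 in INPUT.

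For each of the 8 genes the 3 tested genes with the most similar pattern were taken by Pearson's r of log2 CPM over the 8 libraries, as a description. For Nrxn3 these were Wdr7, Birc6 and Nae1 (r = 0.999, 0.998 and 0.998), and for Nrxn2 Trim71, Gm6368 and Slc39a5 (r = 0.995, 0.986 and 0.986). For Nlgn1 they were Ankrd50, Cnr1 and Klhl23 (r = 0.994, 0.994 and 0.992), for Nlgn2 Erbb4, Sec31a and Togaram1 (r = 0.999, 0.997 and 0.996), and for Nlgn3 Ubxn2b, Syt5 and Yipf5 (r = 0.977, 0.974 and 0.973). For Cbln1 they were 4732487G21Rik, Dnajc17 and Plekho1 (r = 0.998, 0.997 and 0.990), for Cbln2 Fam13a, Lrrc6 and Znhit6 (r = 0.998, 0.997 and 0.997), and for Cbln4 Crlf3, Lmo2 and E130311K13Rik (r = 0.999, 0.999 and 0.998). The libraries share pools and fall into 2 fractions, so these points are not independent.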

How the data were processed

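RNA of 4 TRAP and 4 INPUT libraries was sequenced. The authors aligned reads with STAR 2.5.1a to the Ensembl release 76 assembly, counted unambiguous reads per gene, scaled the counts by TMM and deposited log2 CPM per library, beside columns of their own comparison (fold changes, intervals, test statistics and p-values), which were not used. The table held 14398 entries, of which 45 were identical repeats, leaving 14353 genes, all matched to GENCODE M21 (GRCm38) for exon lengths.

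Groups came from the sample labels. Genes above 1 CPM in at least 3 libraries were tested with limma 3.58.1 (R 4.3.3) with a variance trend, fraction as the only term and Benjamini-Hochberg adjustment. A fit that added the pool as a block was the first alternative, and others used array weights, no filter or a filter at 5 CPM, quantile normalization, median centring, log2(CPM + 1), a log2 difference of at least 1, the exon length trend taken out, coding length, and each pool or library left out. By the labels both libraries of a pool came from the same animals, which is why they were paired. Their deviations from the fraction means did not run together: they correlated between -0.745 and -0.495, and those of different pools between 0.046 and 0.441. Both fits were run on simulated data into which opposed deviations of this kind had been built. There the fit without the block called more unchanged genes than the fit with it. That outcome follows from the deviations built in, so it checks the fits and adds nothing about these data.

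Depth is not given. A search for whole reads behind the low log2 CPM values (within 1e-06) did not settle it: in VP2.2, the best pair of depths left 74% of 8515 low genes whole and a quite different pair left 73%. In VP2.6 these shares were 86.2% and 80.6% of 8488, and VP1.6 and VP2.11 gave none. Intervals from counts were therefore not computed, and low genes such as Cbln4 and Cbln1 are the least certain. CPM back-transformed from log2 was divided by exon length to compare genes.

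The 8 genes and the lists were chosen with earlier results of these data known. The text names all 8 members, of each partner group up to 3 genes with the smallest adjusted p, the 3 largest rises and falls called in both fits, defining and most abundant markers, and the 3 genes most like each member. A few genes that this rule selects are not reported here. Promoter windows came from RefSeq (GRCm38.p6), and the set of windows used here held 4 of the 8 genes.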

Additional observations from a re-analysis of the deposited data

Results flagged for a closer look

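Nrxn3 in the INPUT library of VP2.2 stood apart from the other INPUT libraries, at 7.24 log2 CPM against 8.05 to 8.20 in the other 3 (gap over range 0.84, past Dixon's 95% limit for 4 values). It was the 1 such value in 16 groups of 4 libraries, and chance flags about 1 in 20 groups, or 0.8 here. The same library also differed most from the other INPUT libraries over all genes tested. Its correlation with the mean of the other INPUT libraries was 0.974, against 0.984 to 0.990 for those libraries. Its array weight was 0.336, against 1.352 to 5.658. The cause of the low Nrxn3 value was not tested.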

How the results depend on the processing

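With the replicate block, 4592 genes, 3 members and 29 partner genes were called, against 6830, 4 and 41 without it, and Cbln1 was the member that lost its call. Requiring a log2 difference of at least 1 left 3528 genes and 18 partner genes. Taking out the exon length trend with the replicate block (chosen after seeing the data, as was leaving out pools with the block) left 25 partner genes, and with or without the block it reversed Nrxn2 to -0.13, Nlgn1 to -0.52 and Nlgn3 to -0.33. Nlgn1 was also reversed without VP2.2, to -0.03 in both fits, within a range of -0.03 to 0.21 over the pools left out. The cause of these reversals was not tested. Leaving out 1 pool or library gave 2 to 4 members (2 without VP1.6, when Cbln1 and Cbln4 lost their calls), 4862 to 7167 genes and 29 to 39 partner genes, and with the block, where only whole pools were left out, 2 to 4 members, 3232 to 4156 genes and 20 to 28 partner genes. Nrxn3 and Cbln2 kept their direction and call under every alternative run, Nrxn3 at 0.66 in place of 1.28 with the exon length trend taken out. Depth is unknown, so what it limits could not be computed.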
